A study of Mus musculus with 28 samples.

Results

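The 9098 regions described here were stretches of H3K4me3 of ordinary width that also carried H3K27ac and lacked both repressive marks mapped in the same mouse lung tumours. They were selected on the deposited peak lists. Bases of chromosomes 1 to 19 covered by a peak in at least 3 of 4 H3K4me3 libraries were joined across gaps of up to 1 kb. Regions of at least 200 bp and under 4000 bp were kept where they overlapped an H3K27ac peak in both replicate 3 and replicate 4 and shared no base with those covered in at least 2 of 4 libraries of H3K27me3 or of H3K9me3. The members made up 73.7% of all 12337 H3K4me3 regions and 78.1% of the 11642 regions within that width range. Among regions in the width range, 1126 shared bases with H3K27me3 and 179 with H3K9me3, 542 without repressive bases had no H3K27ac in replicates 3 and 4, and 715 had it in 1 of them. Whether the regions lie at gene starts was not checked, because no annotation of the files' build was used here, so "promoter-like" refers to the marks alone.

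H3K4me3 marks the nucleosomes around active gene starts, and H3K27ac, laid down by the acetyltransferases p300 and CBP, is found at active promoters and enhancers. H3K4me1 is written largely by MLL3 and MLL4 (KMT2C and KMT2D). It is known from enhancers and from the outer flanks of promoters, where H3K4me3 gives way to H3K4me1. H3K79me2 is written by DOT1L on transcribed genes, from just after the start into the first part of the gene body, and therefore usually lies on the downstream side of an active start.

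The mice had received Ad-CMV-Cre, an adenovirus that expresses the Cre recombinase, and lung tumours formed. Both groups carried an oncogene allele that Cre activates, and 1 of them was also Mll4fl/fl, a conditional allele that Cre deletes. The CMV promoter is not restricted to 1 cell type, and bulk tumour tissue also holds host cells without recombination, so fewer cells with a mark and less of the mark per cell cannot be told apart. Each of 6 histone marks was mapped by ChIP-seq in 4 libraries, with 3 mg of tissue per antibody. The sample labels give a mark and a replicate number but no tumour type. The deposited names of replicates 1 and 2 hold a different tag from those of replicates 3 and 4. Since the labels do not say what each tag stands for, values are given by replicate and no tumour types were compared. The labels also do not say whether replicates came from separate mice, so p-values measure only the spread between these libraries, which may include both tumour types.

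Several libraries stood apart. The H3K4me3 list of replicate 1 was the shortest of its mark (10637 peaks, against 14836 to 30191). It touched 40.7% of the members and covered 9.27% of their bases, whereas each of the other 3 libraries touched over 99.9% and covered from 97.4% to 99.9%. The requirement of 3 libraries therefore rested on replicates 2, 3 and 4 for 5393 members with no peak in replicate 1. The library labelled H3K27ac replicate 2 was unlike the others of its mark. Over the members and 2 kb on either side, its peaks shared 16.1%, 11.1% and 11.8% of the combined bases with H3K27ac of replicates 1, 3 and 4, but 17.1%, 17.96%, 19.2% and 21.3% with H3K79me2 of replicates 1 to 4. H3K27ac of replicates 3 and 4 shared 79.4% with each other. They also shared from 27.7% to 39.2% with H3K79me2, more than replicate 2 did, and replicate 1 shared from 12.7% to 17.4%. Of the replicate 2 bases there, 35.1%, 68.2% and 65.6% lay in H3K27ac of replicates 1, 3 and 4, and from 83.7% to 89.1% in H3K79me2. Over chromosomes 1 to 19, from 77.9% to 89.3% of the replicate 2 bases lay in H3K79me2 peaks of the 4 libraries. The other H3K27ac libraries had from 28.2% to 46.6% there, while 17.6%, 44.2% and 42.9% of the replicate 2 bases lay in H3K27ac of replicates 1, 3 and 4. Whether the label of this library is right was not tested. It is called H3K27ac of replicate 2 below by its label alone, and H3K27ac shares are given for each library so that they can be read without it.

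The members were from 205 to 3998 bp wide, with quartiles at 1434, 1850 and 2384 bp, and held 17.6 Mb in all. They were spread at a median distance of 69.4 kb from the next member, and 837 of 9079 neighbouring pairs (9.22%) lay under 10 kb apart. Chromosome 11 held the most per Mb (6.39) and chromosome 14 the fewest (2.58). Members were 76.5% of the 1018 H3K4me3 regions on chromosome 11 and 76.0% of the 425 on chromosome 14. The contrast is thus one of H3K4me3 regions at large.

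H3K27ac was present at every member in replicates 3 and 4, as the rule demanded, and the values of those libraries are a description. A peak covered 95.3% of member bases in replicate 3 and 89.7% in replicate 4, with 1.01 and 1.03 peaks per member and median peak widths of 2666 and 2278 bp. In these libraries, H3K27ac was thus a single block that spanned the H3K4me3 region and ran on past its edges, with 46.8% and 37.3% of the 1-kb flanks covered. In the libraries that the rule did not use, H3K27ac touched 82.7% of members in replicate 1 and 45.6% in replicate 2. There it was broken into small peaks, 312 and 282 bp wide at the median and 2.03 and 1.92 per touched member, which covered 33.8% and 14.6% of member bases. Members were kept only with a peak in replicates 3 and 4, so the high values of those libraries come in part from the choice of members, and the gap to replicates 1 and 2 is no comparison of the libraries. The whole lists held 61536 and 80030 peaks in replicates 1 and 2 and 40049 and 43235 in replicates 3 and 4. With only peaks at or above the median score of all lists, replicates 1 and 2 touched 60.4% and 22.4% of members, and with at least 50% of the region covered, 24.6% and 5.24%.

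Replicates 1 and 2 both had an H3K27ac peak at 3914 members (43.0%), against 35.5% of all H3K4me3 regions, which include the members. Another 3608 members (39.7%) had a peak in replicate 1 and none in replicate 2, 237 had the reverse, and 1339 (14.7%) had none in either. The last group was narrower, with a median width of 1424 bp against 2233 bp where both libraries had a peak. At regions chosen by the same rule but without H3K27ac in replicates 3 and 4, replicates 1 and 2 touched 7.75% and 1.29%. At regions of 4000 bp or more they touched 98.1% and 90.3%. Both libraries had the members between the other two sets. Without replicate 2, 1576 members (17.3%) had no H3K27ac peak in replicate 1. Apart from the share with a peak in both libraries, these counts were not computed over all H3K4me3 regions. They are therefore not read as a trait of the members.

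Averaged over the members, H3K4me1 was low at the centre and higher on either side, although few single members had it on both sides. At the centre of the members, H3K4me1 peaks covered from 3.33% to 5.71% of bases in the 4 libraries. Coverage was highest 900 bp from the centre in replicates 1 and 2 (14.1% and 19.3%) and 1100 bp from it in replicates 3 and 4 (23.4% and 17.7%), and fell to between 2.37% and 7.66% at 10 kb. A peak lay in at least 1 of the 1-kb flanks of 55.2%, 68.9%, 71.6% and 56.2% of members in replicates 1 to 4 (62.9% ± 8.48, SD, n = 4), and in both flanks of 7.11%, 12.8%, 17.9% and 12.9%. H3K4me1 covered 10.3%, 15.2%, 21.2% and 16.9% of the flank bases. Replicates 1 and 4 were low and replicates 2 and 3 high for a peak in at least 1 flank, whereas both replicates 3 and 4 lay above replicates 1 and 2 for flank bases and for a peak in both flanks, the latter by little between replicates 2 and 4. When peaks scoring below the median of all lists were dropped, the mean share with a flank peak was 39.5%, and when at least 50% of a flank had to be covered it was 23.6%. A flank peak was present in at least 3 libraries at 5151 members (56.6%), against 48.2% of all H3K4me3 regions. It was present in all 4 at 3052 (33.5%, against 28.3% of all H3K4me3 regions) and in none at 1113 (12.2%, against 19.7%).

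H3K4me1 coverage of the 1-kb flanks was also set against that of the whole region. Flank coverage minus coverage within the region was −0.46, 0.70, 5.00 and 5.07 percentage points in replicates 1 to 4 (2.58 ± 2.88, SD, n = 4). This difference was within the spread between libraries (exact two-sided sign-flip test, p = 0.25, adjusted p = 0.25). The highest coverage, 900 to 1100 bp from the centre, lay within the edges of the wider members. The sign and size of the mean depended on the setting. It was −0.98 with flanks of 2000 bp and −0.91 with regions built from 2 H3K4me3 libraries. It was higher with flanks of 500 bp (5.11 ± 2.58), with no gaps closed (3.72 ± 2.71) and with regions built from all 4 H3K4me3 libraries (7.86 ± 1.64). The same held with H3K27ac of replicates 1 and 2 in the rule (5.39 ± 3.62). Under each of these settings the exact two-sided sign-flip test gave its smallest p of 0.125 before adjustment.

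**Figure D1:**
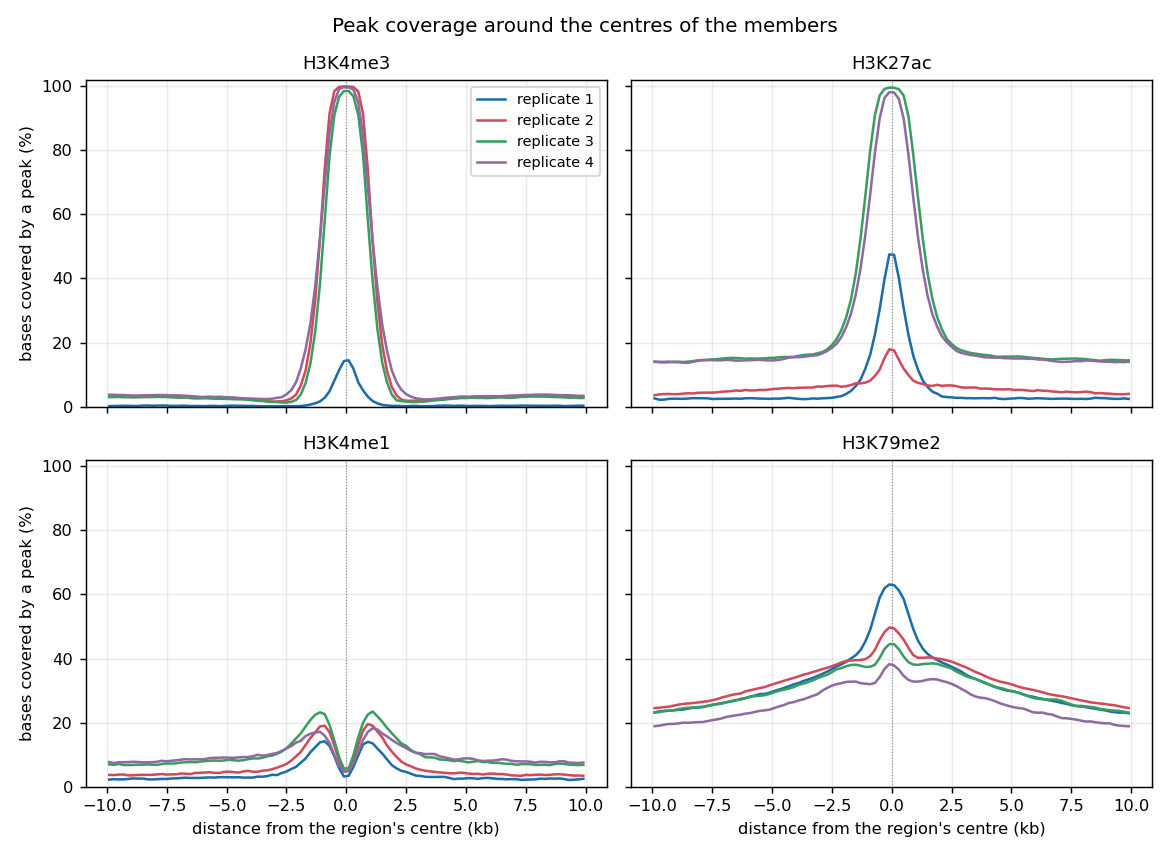
Percent of bases covered by a peak of each mark (vertical axes, 0 to 100%) in 200-bp bins by distance from the centre of the 9098 members (horizontal axes, kb), one line per replicate. H3K4me1 dips to between 3.33% and 5.71% at the centre and peaks 900 to 1100 bp from it, while the H3K4me3 line of replicate 1 and the H3K27ac lines of replicates 1 and 2 lie far below those of the other libraries.

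H3K79me2 touched 71.4%, 66.8%, 66.1% and 61.1% of the members in replicates 1 to 4 (66.3% ± 4.19, SD, n = 4) and covered 62.9%, 50.4%, 45.6% and 39.6% of their bases. Replicate 1 was highest and replicate 4 lowest on both measures. A peak was present in at least 3 libraries at 5775 members (63.5%), against 52.3% of all H3K4me3 regions. It was present in all 4 at 4702 (51.7%, against 42.3% of all H3K4me3 regions) and in none at 1923 (21.1%, against 33.7%). The remaining members were split among the libraries, and the most common patterns were replicates 1, 2 and 3 without 4 (559 members), replicate 1 alone (381) and replicates 1 and 2 alone (283). Replicates 3 and 4 alone shared 87. Shares of these patterns over all H3K4me3 regions were not computed, so nothing about the members is read from them. Where H3K79me2 touched a member, the peak stretch, with gaps of up to 1 kb closed, ran for a median of 8.36, 9.52, 8.16 and 6.25 kb, well beyond the H3K4me3 region.

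H3K4me1 touched 50.7%, 61.8%, 61.9% and 44.4% of members in replicates 1 to 4 (54.7% ± 8.65, SD, n = 4), so that the mean for H3K79me2 was 11.6 percentage points higher. With 4 libraries against 4, this difference did not pass an exact two-sided permutation test (p = 0.0857, adjusted p = 0.156). The difference ranged from 6.57 to 54.1 points under the other settings, the highest with regions built from all 4 H3K4me3 libraries. It was 46.6 points with at least 50% of the region covered. Touching needs only 1 bp, and peaks touching a member were wider for H3K79me2 than for H3K4me1 (median widths of 4973 and 376 bp, averaged over 4 libraries). How far peak width sets the difference was not tested.

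The members differed in H3K79me2 from H3K4me3 regions without H3K27ac, in the same direction in each library. H3K79me2 touched 9.23%, 8.30%, 5.72% and 4.80% of the 542 regions lacking H3K27ac, so the members were higher by 62.2, 58.5, 60.3 and 56.3 points (59.3 ± 2.49, SD, n = 4). Regions of 4000 bp or more that otherwise met the rule were touched at 89.0%, 86.4%, 92.4% and 94.4%, and the members were lower by 24.2 ± 7.10 points. With H3K27ac of replicates 1 and 2 in the rule in place of 3 and 4, this gap was 6.05 ± 5.03 points. That alternative selects on H3K27ac of replicate 2, whose peaks lie mostly in H3K79me2. The widest members, of 3000 bp or more, were touched at a mean of 88.7%, against 90.5% of the wider regions. H3K4me1 reached a flank of 17.3%, 24.0%, 19.004% and 14.2% of the regions lacking H3K27ac, so the members were higher by 44.3 ± 6.22 points. Each of these 3 differences was larger than the spread between libraries and had the same sign in 4 of 4. An exact two-sided sign-flip test over 4 libraries cannot give a p below 0.125, and each comparison reached that value (p = 0.125, adjusted p = 0.156 over 5 tests), so none could pass 0.05. The regions lacking H3K27ac were narrower (median 932 bp against 1850 bp). Among regions of at least 1000 bp and under 3000 bp in both sets, the differences were 59.8 points for H3K79me2 and 44.4 points for H3K4me1. The regions lacking H3K27ac also held more H3K27me3 of replicate 3, which touched 26.6% of them and 2.74% of members. With regions sharing bases with a repressive peak in any 1 library left out of both sets, the differences were 57.98 and 45.3 points. With no gaps closed they were smaller, at 31.2 and 23.2 points.

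**Figure D2:**
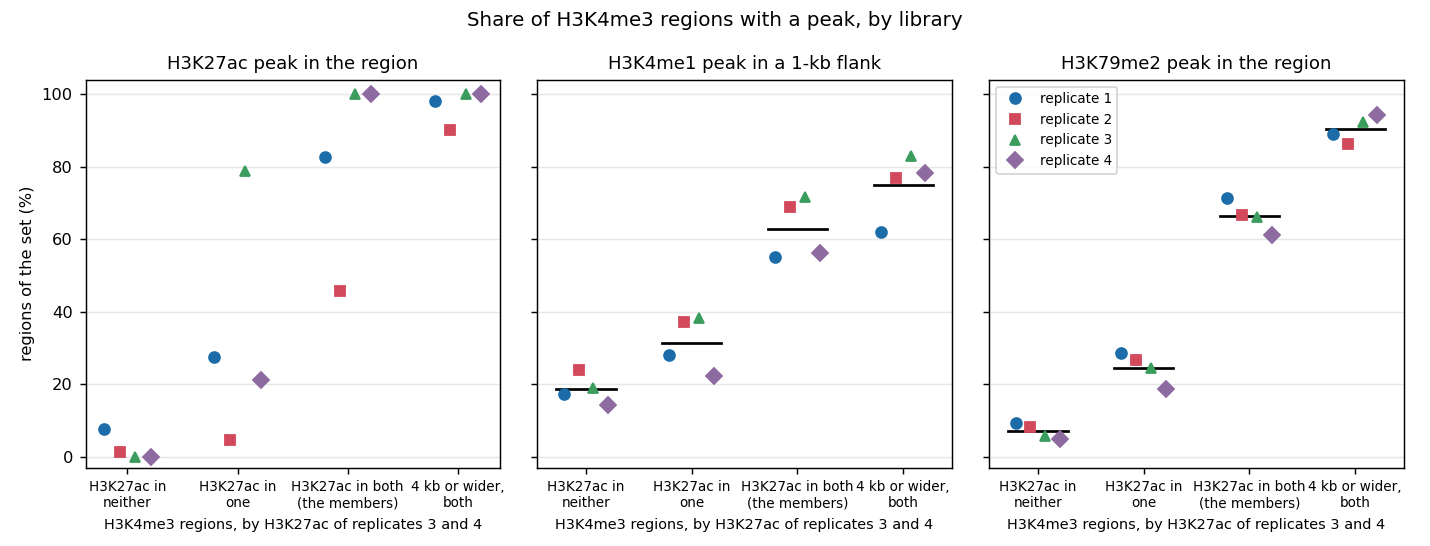
Percent of regions (vertical axis) with an H3K27ac peak, an H3K4me1 peak in a 1-kb flank or an H3K79me2 peak, in 4 sets of H3K4me3 regions sharing no base with repressive bases of at least 2 libraries (horizontal axes; the first 3 sets are at least 200 bp and under 4000 bp wide), with a symbol per replicate and a line at the mean of 4 libraries for the marks the rule did not use. Members lie above the regions with no H3K27ac and below the regions of 4000 bp or more in each library of H3K79me2 and H3K4me1.

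H3K79me2 extended from many members on 1 side only. A member was called one-sided where H3K79me2 covered at least 50% of the 5 kb on one side and under 10% of the 5 kb on the other. This held for 46.7%, 50.2%, 47.8% and 41.5% of members in replicates 1 to 4, against 38.6%, 41.5%, 39.0% and 33.5% of all H3K4me3 regions and 40.9%, 47.2%, 52.8% and 47.8% of the regions of 4000 bp or more. The mean share was 46.5% in the members and 47.2% in the wider regions, a difference that was not tested. Meanwhile 6.24%, 6.81%, 5.55% and 3.90% of members had at least 50% covered on both sides. The side was the same from library to library. Of 4669 members called one-sided in at least 2 libraries, 4663 (99.9%) had H3K79me2 on the same side in each and 6 did not. This agreement was not computed for other H3K4me3 regions. In all 4 libraries, 2857 members (31.4%) were one-sided, against 24.9% of all H3K4me3 regions, 1389 to the left and 1468 to the right along the chromosome. These 2857 members are called fixed-side members below.

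On the side away from H3K79me2, the flanks of fixed-side members had H3K4me1 less often than on the H3K79me2 side. An H3K4me1 peak lay within 2 kb on the H3K79me2 side at 70.4%, 83.5%, 86.3% and 70.8% of them in replicates 1 to 4, and within 2 kb on the other side at 7.32%, 13.7%, 18.8% and 17.8%. The difference was 63.4 ± 7.43 percentage points (SD, n = 4), and the ranges of the sides did not overlap. This contrast was chosen after earlier values were seen, so it is a description and carries no test. At the 2525 fixed-side members with no other H3K4me3 region under 10 kb away, it was 63.6 points.

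The same held when side was read in each library by itself. Among members one-sided for H3K79me2 in a library and with H3K4me1 in only 1 of the 2-kb flanks, that flank was the H3K79me2 side in 2538 of 2679 (94.7%), 2971 of 3117 (95.3%), 2771 of 2881 (96.2%) and 2022 of 2148 (94.1%). In regions of 4000 bp or more, the shares were 93.0%, 92.4%, 94.1% and 89.0%, from 100 to 145 regions a library. Whether the members and the wider regions differ in this was not tested. Neither these shares nor the side difference above was computed over all H3K4me3 regions, so neither is read as particular to the members.

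H3K27ac peaks were present more often on the other side in 3 of 4 libraries, but did not cover more bases there in 2 of these. In replicates 1, 3 and 4, an H3K27ac peak lay in the 2-kb flank on the H3K79me2 side at 21.6%, 69.3% and 57.6% of fixed-side members and in the opposite flank at 27.5%, 94.9% and 80.2%. In replicate 2 it lay on the H3K79me2 side at 74.2% and on the other at 2.49%. That library also had a larger share of its peak bases in H3K79me2 than the other H3K27ac libraries. The first 3 libraries had an excess on the side without H3K79me2, of 5.99 to 25.6 points. In share of flank bases rather than of members with a peak, replicate 3 kept this direction (30.8% on the H3K79me2 side and 35.2% on the other), while in replicates 1 and 4 the H3K79me2 side was slightly the higher (4.00% and 3.99%, and 28.4% and 28.2%). Farther out, 5.1 kb from the centre, more bases were covered on the H3K79me2 side in each of the 4 libraries (2.63%, 18.6%, 18.9% and 18.01%, against 0.96%, 0.04%, 9.85% and 10.3%).

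**Figure D3:**
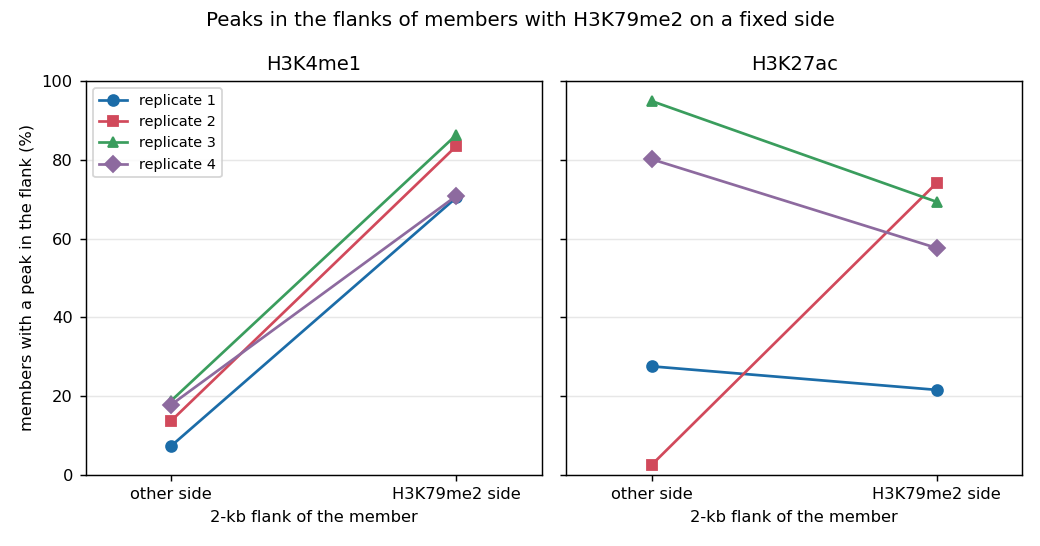
Percent of the 2857 fixed-side members with an H3K4me1 or H3K27ac peak (vertical axis) in the 2-kb flank away from H3K79me2 or on its side (horizontal axes), one line per replicate. All 4 H3K4me1 lines rise towards the H3K79me2 side, while for H3K27ac replicates 1, 3 and 4 fall and replicate 2 rises from 2.49% to 74.2%.

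**Figure D4:**
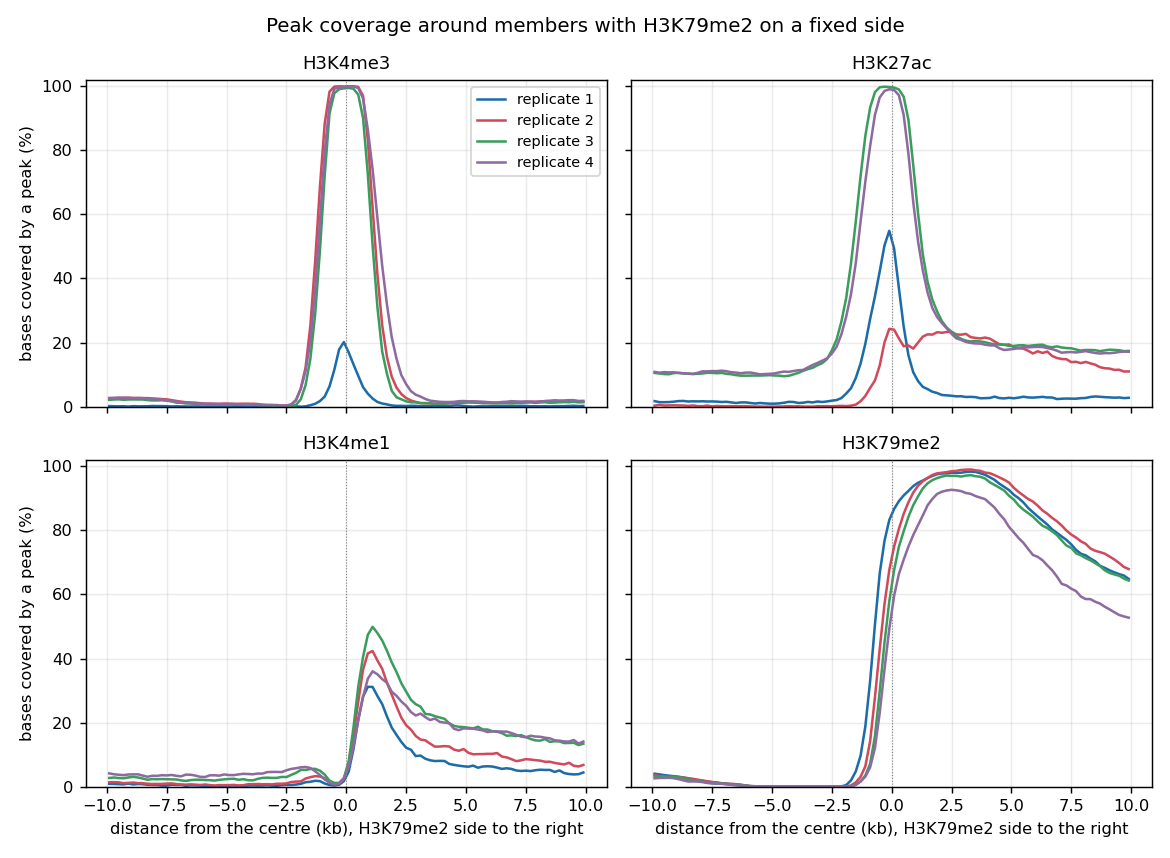
Percent of bases covered by a peak (vertical axes) in 200-bp bins by distance from the centre of the 2857 fixed-side members (horizontal axes, kb), turned so that H3K79me2 lies to the right, one line per replicate. H3K79me2 is on the right by choice of the members, and H3K4me1 is highest there at 900 to 1100 bp, at 31.2%, 42.3%, 49.9% and 36.0% in replicates 1 to 4.

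Few close neighbours could be read for their sides. Of the 837 neighbouring pairs under 10 kb apart, 31 had both members with a fixed side. In 22 of these pairs H3K79me2 lay on the outer sides, in 8 on the inner sides, and in 1 both lay in the same direction. The 5-kb windows of such pairs can overlap, so H3K79me2 that runs towards a neighbour can fill that neighbour's window and keep it from being called one-sided. The counts therefore do not describe close neighbours in general.

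Wider members had a peak of H3K79me2, H3K4me1 or H3K27ac more often. H3K79me2 touched a mean of 16.05% of members under 1000 bp (n = 793), 58.6% of those from 1000 to under 2000 bp (n = 4510), 85.3% of those from 2000 to under 3000 bp (n = 2974) and 88.7% of those of 3000 bp or more (n = 821). The share with an H3K4me1 flank peak was 40.8%, 57.2%, 74.2% and 75.5% in the same order, although the flanks have the same length in each class. H3K27ac of replicate 1 went from 61.5% to 97.3% and that of replicate 2 from 16.3% to 80.3%. The increase levelled off above 2000 bp for H3K4me1 and H3K79me2. For H3K79me2 and H3K27ac, 1 bp of overlap anywhere in the member counts, so a wider region offers more room for it. That part was not tested.

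Members with H3K79me2 in all 4 libraries had H3K4me1 flanks more often than members without it. An H3K4me1 flank peak was found in a mean of 33.1% ± 8.28 (SD, n = 4) of the 1923 members with no H3K79me2 in any library and 78.5% ± 9.21 of the 4702 with it in all 4. H3K27ac touched 65.5% and 90.1% of these classes in replicate 1, and 11.9% and 67.1% in replicate 2. Since the peaks of replicate 2 lie mostly in H3K79me2, its shares by H3K79me2 class are tied to that overlap. Width moved with the split by H3K79me2, with medians of 1283 and 2156 bp, and its part was not tested. Both H3K79me2 and an H3K4me1 flank peak were present in all 4 libraries at 2317 members (25.5%, against 20.7% of all H3K4me3 regions), and both were absent from all 4 at 680 (7.47%, against 14.8%). The marks did not always go together: 142 members with no H3K79me2 had an H3K4me1 flank peak in all 4 libraries. Of those with H3K79me2 in all 4, 49.3% (2317 of 4702) had one in all 4, against 2551 of 5221 among all H3K4me3 regions. The latter 2 are alike, and the count of 142 was not computed over all regions. Neither is read as a trait of the members.

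**Figure D5:**
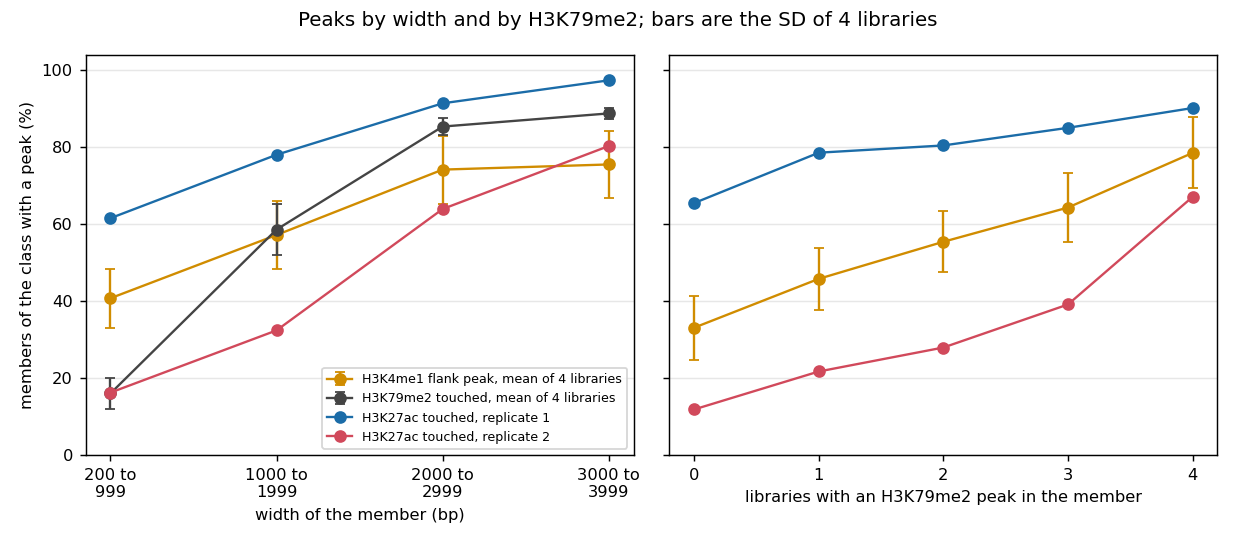
Percent of members with a peak (vertical axis) by width of the member (left) and by the number of libraries with H3K79me2 (right). Points for H3K4me1 and H3K79me2 are means of 4 libraries with their SD, and those for H3K27ac are single libraries (replicates 1 and 2). H3K4me1 rises from 40.8% to 75.5% with width and from 33.1% to 78.5% with the number of H3K79me2 libraries.

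All of H3K27ac, H3K79me2 and flank H3K4me1 were present in all 4 libraries at 1611 members (17.7%), against 14.6% of all H3K4me3 regions. Without H3K27ac of replicate 2 there were 2135 (23.5%, against 18.9%). The rule itself used H3K27ac of replicates 3 and 4, so nothing is read from these shares. Among the 1611, the 3 with the highest H3K27ac scores, taking the lowest score over 4 libraries, show different arrangements (mm9 coordinates). At each of them the lowest score was that of H3K27ac replicate 2, the library whose peaks lay mostly in H3K79me2. When it was left out, 0 of the 3 were among the top 3. At chr10:79562658-79565735, H3K79me2 covered all 3078 bases in each replicate, all 5 kb to the left and from 1867 to 4227 bases to the right. H3K27ac covered 3047, 2651, 3078 and 3078 bases there, although H3K4me3 of replicate 1 had none. At chr3:87945791-87949178 (3388 bp), H3K79me2 covered the whole 5 kb to the right and no base of the 5 kb to the left in each of the 4 libraries, which makes it a clear one-sided member. Its 1-kb flanks held 1000, 1305, 1363 and 1000 bases of H3K4me1. At chr12:88222735-88226128 (3394 bp), H3K79me2 extended to the left over 2323 to 2676 bases, and H3K4me1 was absent from the region in all 4 libraries and covered only 13, 335, 1061 and 261 bases of its flanks.

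Some members lacked these marks. No H3K79me2 lay in or within 5 kb of 1038 members (11.4%) in any library, against 22.9% of all H3K4me3 regions. No H3K4me1 lay in or within 2 kb of 674 (7.41%, against 12.6%), and 117 (1.29%, against 5.25%) had neither of these and no H3K27ac in replicates 1 and 2. Among members without H3K79me2, the one with the highest H3K4me3 scores, chr2:34225883-34229264 (3382 bp), had best H3K4me3 scores of 3077, 3100 and 2737 in replicates 2 to 4. Its H3K27ac covered 437, 0, 3382 and 2857 bases in replicates 1 to 4, and it had no H3K4me1 within 2 kb in any library. The others chosen this way were chr12:80106944-80108898 and chr1:69731396-69735240, and both lacked H3K27ac in replicate 2 as well. Among members without H3K4me1, chr10:26092691-26096302 and chr16:50429014-50433005 scored highest beside the one on chromosome 2. At the first, H3K79me2 lay to the left in replicates 1, 2 and 3 (1440, 4857 and 2017 bases) and not in replicate 4, and at the second it reached the region in replicate 3 alone (2395 bases).

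Members without H3K27ac in replicates 1 and 2 could still carry H3K79me2, though less often. H3K79me2 touched a mean of 36.1% of these 1339 members, against 86.8% of the 3914 with H3K27ac in both. The 3 named regions below all had it in some library. At chr9:47337490-47341162 (3673 bp), H3K27ac covered 0, 0, 2382 and 2598 bases in replicates 1 to 4, and H3K79me2 covered 2839, 2911, 0 and 2611. At chr2:9968836-9971554 it was replicate 2 that lacked H3K79me2, with 1783, 0, 1744 and 1398 bases. At chr15:12753509-12755771, H3K79me2 was present in each library, with 2263, 1013, 1254 and 2253 bases.

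At the width limits, the widest members, chr7:16631446-16635443 (3998 bp) and chr3:95031490-95035483 (3994 bp), had H3K27ac and H3K79me2 in all 4 libraries. The narrowest regions above the limit, chr8:108659194-108663193 (4000 bp) and chr9:77602167-77606170 (4004 bp), lacked H3K27ac in replicate 2 and replicate 1, respectively. The narrowest members, chr2:131936903-131937107 (205 bp) and chr8:35875275-35875480 (206 bp), were wholly covered by H3K79me2 in each library and lay inside longer stretches, with at least 4266 of 5000 bases covered on each side.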

How the data were processed

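ChIP-seq peak lists of 24 libraries (6 marks, 4 each) were used, and the 4 input samples of the 28 in the series have none here. Coordinates are on mm9, per the submitters' processing notes, which also name CASAVA 1.7, Bowtie, MACS and deepTools without their roles or settings. The peak threshold and the control used were not given in the sources used here. Each deposited peak has the authors' own score of at least 50, which served here for ordering and filtering peaks. No read counts were used, so depth is unknown, no counting intervals were possible, and the number of libraries limits the precision.

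Libraries were grouped by mark from the labels. Coverage and overlap (at least 1 bp) were computed with Python 3.11.15 and numpy 2.4.6, and tested on simulated intervals. Flanks were 1 kb, or 2 kb for the sides. Library shares were compared by exact two-sided sign-flip tests (16 sign patterns) or an exact permutation test (70 splits, smallest p 0.0286), with Benjamini-Hochberg adjustment over 5 tests. A call needed an adjusted p of 0.05, which none of the 5 tests could reach.

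The members, comparison sets and contrasts were chosen with earlier results of these data known. Named regions were those with the highest lowest score over replicates: of H3K27ac, among members with H3K27ac, H3K79me2 and flank H3K4me1 in all libraries, or of H3K4me3 in replicates 2 to 4, among members lacking H3K79me2, H3K4me1 or H3K27ac of replicates 1 and 2, with 3 regions each, plus those nearest the width limits. Chromosome 18 was left out of the named regions. Gene names, gene lists and cell type markers were not used, since no annotation of the same build was at hand, and no sequences are given for the same reason. Other settings of the rule, scores, overlap, flanks and libraries were tried. The oncogene allele is not reported here.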

Additional observations from a re-analysis of the deposited data

Results flagged for a closer look

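Of 23 groups of 4 library values examined, 4 held a library whose distance to the nearest other exceeded Dixon's 95% critical value for 4 values. Chance marks about 1 in 20 groups, but all 4 are of marks that the rule used, so their values are shaped by the choice of members and are a description only. H3K4me3 of replicate 1 was the lowest in the share of members touched (40.7%) and in the share of member bases covered (9.27%). Members needed H3K4me3 in at least 3 of 4 libraries, so where replicate 1 had no peak the other 3 had to have one. H3K27me3 of replicate 3 touched 2.74% of members, more than the other 3 libraries, and H3K9me3 of replicate 4 touched 2.29%. The rule excluded bases covered in 2 or more libraries of either mark.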

How the results depend on the processing

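Peaks carry no read depth here, so how far short or fragmented lists lower a share cannot be read from them. With H3K4me3 required in all 4 libraries, 3812 regions met the rule, and with H3K27ac of replicates 1 and 2 in place of 3 and 4, 3934 did. Under the latter, H3K4me1 reached a flank of 75.4%, H3K79me2 touched 86.8% and was one-sided at 58.1%. Peaks at or above the median score gave 39.5% for H3K4me1 flanks and 61.6% for H3K79me2, and equal numbers of best-scored peaks gave 51.5% for H3K4me1 flanks. Requiring 50% of the region or flank to be covered gave 23.6% for H3K4me1 flanks, 49.5% for H3K79me2 and 24.6% and 5.24% for H3K27ac of replicates 1 and 2 (their mean 14.9%, from 64.2%, with 41.4% at the median score). The H3K4me1 flank-minus-region difference turned to −0.91 with H3K4me3 in 2 libraries and to −0.98 with 2000-bp flanks. The cause of these changes was not tested. The rule with H3K27ac of replicates 1 and 2 selects on the library labelled H3K27ac replicate 2, whose peaks lie mostly in H3K79me2, so a higher H3K79me2 share is built into it. Leaving it aside, the 3 differences between the members and the other sets kept their sign: from 31.2 to 60.5 points for H3K79me2 against regions lacking H3K27ac, from 21.1 to 46.8 for H3K4me1, and from −29.5 to −21.2 against wider regions. With it they were 79.8, 56.8 and −6.05. The side difference of H3K4me1 stayed between 48.5 and 66.8 points under 9 settings chosen after seeing the data. Rules without H3K4me3 of replicate 1, H3K27me3 of replicate 3 or H3K9me3 of replicate 4, also chosen after seeing the data, turned no direction.

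With a replicate block, the H3K79me2 minus H3K4me1 difference was 11.6 points (exact two-sided sign-flip test, p = 0.125). The numbers were not taken to pair the libraries. Across members, same-numbered libraries of these marks correlated in their deviations at r = 0.0379, 0.0499, 0.0738 and 0.169, which was the best match for H3K79me2 of replicates 2, 3 and 4, while replicate 1 correlated best with replicate 2 of H3K4me1 (0.0569). Differently numbered libraries ranged from −0.110 to 0.0569.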
